A study of Rattus norvegicus with 10 samples.

Results

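The 6 genes described here are the NR4A nuclear receptors Nr4a1, Nr4a2 and Nr4a3 and the stress proteins Gadd45a, Gadd45b and Gadd45g, measured in rat liver. They were taken as every array probe whose accession gave any of these symbols. This found 1 probe for each gene, 6 of 41012 probes, and 6 of 13426 named genes. The gene names in the files were not searched, so further probes of these genes may exist. The livers came from male Wistar rats and were taken at 24 h. The 3 control rats received 0 Gy, the 3 TBI rats received total-body irradiation with 6.5 Gy from a cobalt source, and the 4 MASM + TBI rats were given MASM, a thio derivative of the plant alkaloid matrine, by the intragastric route at 30 mg/kg per day for 3 days before the same 6.5 Gy. The labels give the dose of 6.5 Gy, the methods of the study give another, and age is not given in the sources used here. The labels only number the samples of a group, the study's text calls them rats, and p-values measure the spread between these samples.

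NR4A receptors are transcription factors of the nuclear receptor family that need no bound hormone. Their genes are switched on within minutes to hours by cAMP, calcium, growth factors and stress, and in liver fasting and glucagon raise them, where they act on genes of glucose production. GADD45 proteins are small nuclear proteins without known enzyme activity that bind and steer other proteins: the kinase MAP3K4 above p38 and JNK, the mitotic pair CDK1 and cyclin B1, PCNA and the CDK inhibitor p21. Gadd45a is a classic target of p53, whereas Gadd45b and Gadd45g respond more to cytokines, growth signals and metabolic stress.

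The tissue label was checked against 8 hepatocyte markers. All 8 (Alb, Ttr, Apoa1, Tat, Tf, Fgb, Cps1 and Cyp2e1) were well above background on all 10 arrays, with a summed signal between 1050000 and 1240000 in every rat, and Tf was the brightest of them on average. In whole liver, fewer cells of a type and less RNA per cell cannot be told apart, and this holds for every difference below.

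The largest difference among the 6 genes was that of Nr4a1 (Nur77), the receptor best known from cells that are stimulated or dying. Its log2 normalized signal was 7.33, 9.33 and 7.95 in the control rats, 11.11, 12.60 and 12.38 in the TBI rats, and 11.66, 11.03, 11.90 and 5.97 in the MASM + TBI rats. All 3 TBI rats lay above all 3 control rats, MASM + TBI rats 1 to 3 lay close to or within the TBI range, and rat 4 lay below every other rat of the study. The TBI mean was 14.2-fold above the control mean (log2 difference 3.83, SE 1.46, 95% confidence interval 0.48 to 7.17), the 5th highest difference among 13426 genes, but with this spread the adjusted p of limma was 0.162. The MASM + TBI mean was 3.83-fold above control (log2 difference 1.94, SE 1.37, adjusted p = 0.552) and lay below the TBI mean by a log2 difference of -1.89 (SE 1.37, adjusted p = 0.53). Taken from mean signals in place of mean log2 values, MASM + TBI was 6.58-fold above control, and 1.99-fold below TBI where the log2 means gave 3.7-fold.

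Nr4a2 (Nurr1), which like Nr4a1 can pair with the retinoid X receptor, gave the same layout over a smaller range. Its log2 signal was 6.18, 6.57 and 6.11 in control rats, 8.33, 9.16 and 9.17 in TBI rats, and 8.83, 7.99, 8.73 and 6.07 in MASM + TBI rats. The TBI and control rats did not overlap, and of the MASM + TBI rats only rat 4 stood at the control level, marginally below its lowest value. The TBI mean was 6.06-fold above control (log2 difference 2.60, SE 0.66, adjusted p = 0.0594), and the MASM + TBI mean was 3.07-fold above it (log2 difference 1.62, SE 0.62, adjusted p = 0.227). Between MASM + TBI and TBI the log2 difference was -0.98 (SE 0.62, adjusted p = 0.47).

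Nr4a3 (Nor1), the member that does not pair with the retinoid X receptor, was dim. Its probe was not well above background in any control rat (log2 signal 3.62, 3.51 and 3.05). In TBI rats the values were 1.84, 8.37 and 7.48, and in MASM + TBI rats they were 2.42, 5.69, 6.79 and 4.39. Rat 1 of each irradiated group was not well above background, while the other 2 TBI rats and the other 3 MASM + TBI rats were above every control rat, so the groups overlapped. The control level is only bounded from above, by the dimmest signal still well above background on each control array or by the probe's signal if larger. Measured from that bound, TBI rats had at least 4.04 times the control signal on average and MASM + TBI rats at least 1.92 times, though neither is strict because rat 1 of each group was itself not well above background. The measured log2 differences were 2.50 (SE 1.69, adjusted p = 0.412) and 1.43 (SE 1.58, adjusted p = 0.744). The TBI value rested on which rat was counted: it became 4.53 without TBI rat 1, 1.26 without TBI rat 2 and 1.71 without TBI rat 3, and between MASM + TBI and TBI -1.07 became -3.10 without TBI rat 1 and 0.17 without TBI rat 2.

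**Figure D1:**
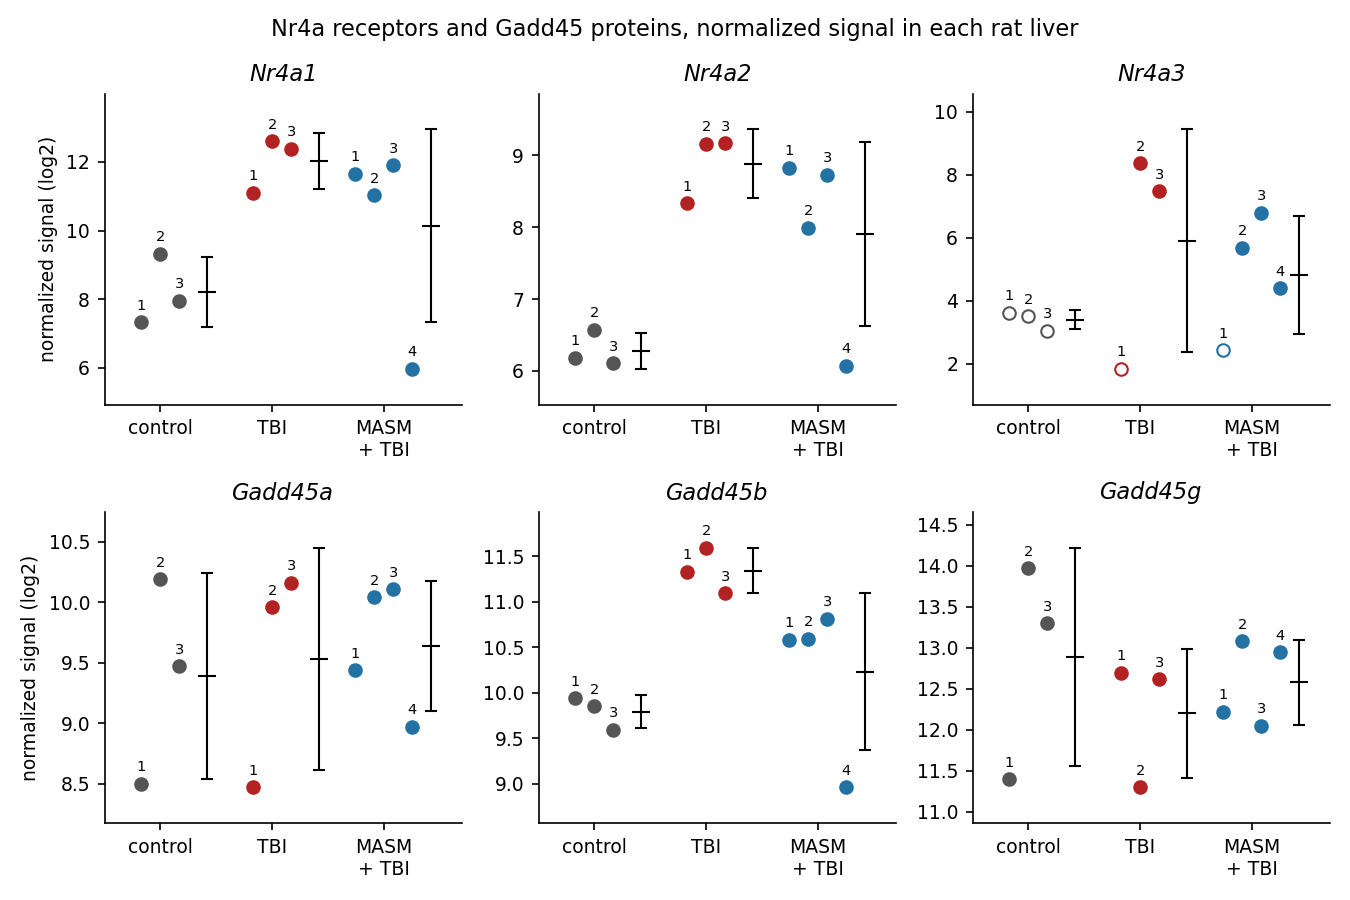
Log2 normalized signal (vertical axis) of the 6 genes in each of the 10 rats, grouped as control, TBI and MASM + TBI, with the replicate number beside each point. Open points were not well above background, and the bar beside each group is its mean ± SD (n = 3, 3 and 4). For Nr4a1, rat 4 of MASM + TBI stands at 5.97 while the other 3 rats of its group lie between 11.03 and 11.90.

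Gadd45b, which restrains JNK signalling and is induced when liver cells are driven to grow, was the GADD45 gene whose TBI rats stood apart from both other groups. Its log2 signal was 9.94, 9.85 and 9.59 in control rats, 11.33, 11.59 and 11.09 in TBI rats, and 10.58, 10.59, 10.81 and 8.96 in MASM + TBI rats. The TBI rats were the 3 highest of all 10 rats, MASM + TBI rats 1 to 3 lay between the TBI and control rats, and rat 4 again lay below every control rat. The TBI mean was 2.91-fold above control (log2 difference 1.54, SE 0.44, 95% confidence interval 0.54 to 2.55, adjusted p = 0.0819). The MASM + TBI mean differed from control by 0.44 (SE 0.41, adjusted p = 0.684) and from TBI by -1.10 on the log2 scale (SE 0.41, 95% confidence interval -2.04 to -0.16, adjusted p = 0.223).

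Gadd45a, the p53 target that slows cells at the border of G2 and mitosis, showed no such layout. Its log2 signal was 8.50, 10.19 and 9.47 in control rats, 8.47, 9.96 and 10.16 in TBI rats, and 9.44, 10.04, 10.11 and 8.97 in MASM + TBI rats. Each group held high and low rats and all 3 groups overlapped. The TBI mean differed from control by 0.15 (SE 0.57, 95% confidence interval -1.15 to 1.44, adjusted p = 0.904), and this sign turned when control rat 1 (-0.30), TBI rat 2 (-0.07) or TBI rat 3 (-0.17) was left out. The interval still takes in more than a doubling of the signal (upper limit 2.71-fold), so a change of that size is not excluded.

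Gadd45g, induced by cytokines in immune and epithelial cells, had its highest values in control rats. Its log2 signal was 11.40, 13.97 and 13.30 in control rats, 12.70, 11.30 and 12.62 in TBI rats, and 12.22, 13.08, 12.05 and 12.95 in MASM + TBI rats. The irradiated rats all lay within or at the edge of the range of the controls, and rat 4 was not low here. The TBI mean differed from control by -0.69 (SE 0.67, adjusted p = 0.57), the MASM + TBI mean by -0.32 (SE 0.62, adjusted p = 0.922), and MASM + TBI from TBI by 0.37 (SE 0.62, adjusted p = 0.807). All 3 values turned on single rats. The MASM + TBI value became 0.22 without control rat 2 and -1.06 without control rat 1, and the difference between the irradiated groups became -0.08 without TBI rat 2. The TBI value was -1.43 without control rat 1 (unadjusted p = 0.0244, adjusted p = 0.186), -0.15 without control rat 2 and -0.23 without TBI rat 2, with adjusted p from 0.186 to 0.926 over all alternatives.

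A gene was called where its adjusted p was under 0.05 and its fold change at least 1.5. By limma 0 of the 6 genes were called in TBI versus control, where 5.18% of the named genes and 4.5% of all probes were called. At an unadjusted p under 0.05 with the same fold, limma gave 3 genes higher (Nr4a1, Nr4a2 and Gadd45b), where 7.54% of named genes passed as higher, and the methods' t-test gave 3 at its unadjusted threshold, which 3.77% of named genes passed as higher, and 0 after a Benjamini-Hochberg step added here. The same 3 genes had TBI rats entirely above control rats, as had 13% of named genes. In MASM + TBI versus control 0 of 6 were called, against 2.9% of named genes and 2.35% of all probes; 1 gene, Nr4a2, passed unadjusted (3.5% of named genes passed as higher), and the methods' t-test gave 0 either way. Between MASM + TBI and TBI 0 of 6 were called, against 0.864% of named genes and 1.39% of all probes; Gadd45b passed unadjusted as lower (6.09% of named genes did) and was the 1 gene of 6 with MASM + TBI rats entirely below TBI rats (7.49%), while the methods' t-test gave 0 either way. The comparisons with control share the same 3 control rats.

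The calls turned on MASM + TBI rat 4, on the scaling and on the model. Without MASM + TBI rat 4, whose distance from its group enters the spread that all comparisons share, TBI versus control gave 3 calls (4.04% of all probes were called in that fit), with limma's adjusted p at 0.0172 for Nr4a1, 0.00704 for Nr4a2 and 0.00403 for Gadd45b. Over all alternatives tried, these adjusted p-values ran from 0.0172 to 0.318, from 0.00704 to 0.228 and from 0.00403 to 0.204. MASM + TBI versus control also gave 3 calls without that rat (1.4% of all probes). In that fit of MASM + TBI versus control Nr4a1 stood 3.33 above control (adjusted p = 0.0462, over all alternatives 0.0462 to 0.771), Nr4a2 2.23 (0.0198, range 0.0198 to 0.441) and Gadd45b 0.86 on the log2 scale (0.0478, range 0.0478 to 0.897). A block by replicate number, which also drops that rat, gave the same differences but none of these calls (limma's adjusted p = 0.0756, 0.07 and 0.0977). Without rat 4, MASM + TBI versus TBI still gave 0 calls. The log2 difference then shrank from -1.89 to -0.50 for Nr4a1 (adjusted p = 0.742, range 0.32 to 0.742), from -0.98 to -0.37 for Nr4a2 (0.626, range 0.261 to 0.672) and from -1.10 to -0.68 for Gadd45b (0.116, range 0.0883 to 0.486). The lower MASM + TBI means of Nr4a1 and Nr4a2 thus came mostly from 1 rat, while for Gadd45b all 4 rats lay below the TBI rats. Leaving out any of the other 9 rats gave 0 calls in every comparison. With all rats kept, TBI versus control gave 2 calls under 75th percentile scaling (17% of all probes called) and 2 with slide as a random block (9.96%). A model of the 2 groups alone, which holds no MASM + TBI rat and so leaves out rat 4 as well, also gave 2 (2.3%).

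**Figure D2:**
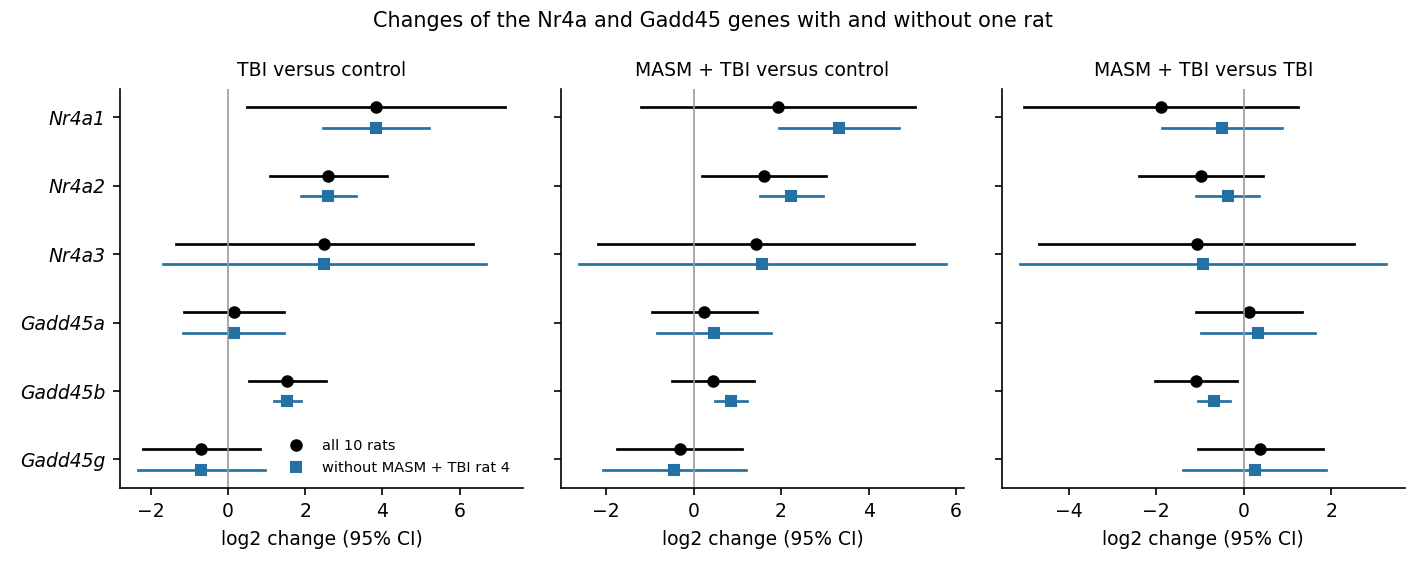
Log2 differences (horizontal axis, points) with 95% confidence intervals (lines) for the 6 genes in each comparison, from all 10 rats (black circles) and without MASM + TBI rat 4 (blue squares). In TBI versus control the points do not move and the intervals of Nr4a1, Nr4a2 and Gadd45b narrow, whereas in MASM + TBI versus TBI the Nr4a1 point moves from -1.89 to -0.50.

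Rat 4 was low in some genes and not in others. Its Nr4a1 signal lay 5.56 log2 units below the mean of the other 3 rats of its group (difference -5.56), and 2 of 13426 genes lay further below. The same difference was -2.44 for Nr4a2, with 24 genes further below, and -1.70 for Gadd45b, with 80. It was -0.88 for Gadd45a, -0.58 for Nr4a3 and 0.50 for Gadd45g, and its median over all named genes was -0.01. Its Cdkn1a signal, the p53 target that shows the irradiation most clearly, was 13.58, the highest of the 4 MASM + TBI rats.

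The arrays lay on 3 slides. All TBI rats shared slide 2 with no other group, so that TBI and this slide cannot be told apart. The TBI arrays also had more spots well above background (64.1, 66.8 and 70.1%) than any other array (56.2 to 60.2%), and the part of this in the TBI differences was not tested. MASM + TBI rat 3 was hybridised on the slide of the controls, slide 1, and the remaining 3 of its group on slide 3. Within slide 1, MASM + TBI rat 3 stood above the control mean by 3.70 for Nr4a1, 2.44 for Nr4a2, 0.72 for Gadd45a and 1.01 for Gadd45b, and differed from it by -0.84 for Gadd45g. Nr4a3 was also higher in that rat (6.79) than the control mean (3.39), a control level that is only bounded. A single rat carries these differences, and with slide as a fixed block their adjusted p was 0.533 for Nr4a1, 0.339 for Nr4a2 and 0.572 for Gadd45b. With slide as a random block the MASM + TBI differences from control were 1.56, 1.44 and 0.32 for these 3 genes (adjusted p = 0.494, 0.156 and 0.689), and the TBI differences 3.57 (adjusted p = 0.0722), 2.48 (0.0184) and 1.46 (0.028). The correlation estimated within slides was negative (-0.133), which narrows the errors of a comparison between slides, and the calls over all probes in TBI versus control went from 1842 to 4078, so the calls gained for Nr4a2 and Gadd45b are not read as a result.

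NR4A genes belong to the immediate-early genes, which need no new protein for their first transcription. Of 16 others on a fixed list, 14 had a probe, and their median log2 difference between TBI and control was 0.73, beside -0.01 over all named genes. It was 0.36 without control rat 1, the lowest over the 10 left-out rats, and 1.05 without TBI rat 1, the highest. In TBI versus control 1 of 14 was called (5.18% of named genes were), Btg2, an antiproliferative gene that p53 also drives (log2 difference 3.13, SE 0.60, 8.74-fold, adjusted p = 0.0244). Btg2 gave 9.0, 10.39 and 9.52 in control rats, 12.14, 13.13 and 13.02 in TBI rats, and 12.61, 12.67, 12.93 and 10.80 in MASM + TBI rats. Its call was lost without control rat 1 (adjusted p = 0.0722), control rat 3 (0.0805), TBI rat 2 (0.0671) or TBI rat 3 (0.0514), the highest over its 10 left-out rats being 0.0805. Btg2 was again the 1 gene called in MASM + TBI versus control (log2 difference 2.62, SE 0.56, adjusted p = 0.0481), a call kept without rat 4 and lost without any of the other 9 rats (0.055 to 0.152), and the list median was 0.50 beside 0 over all named genes (0.17 without control rat 1, 0.78 without MASM + TBI rat 4). Between MASM + TBI and TBI limma called 0 of 14, and 0 passed unadjusted, with a median of -0.28 beside 0.01 (-0.53 without TBI rat 1, 0.07 without MASM + TBI rat 4).

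Rat 4 had the lowest value of the 4 MASM + TBI rats for 12 of these 14 genes, as it had for 28.5% of named genes, and its median difference from the other 3 rats was -1.31. It lay below the control mean for 11 of 14, where rats 1, 2 and 3 did so for 2, 2 and 3 genes. Atf3, a stress-induced partner of Jun, gave 12.15, 11.57, 11.45 and 7.20 in the 4 MASM + TBI rats. It lay below the lowest control rat, as it did for Nr4a1, Nr4a2 and Gadd45b, for 5 of 14, where rats 1, 2 and 3 did so for 1, 2 and 2 genes and TBI rat 1 for 3. A low rat was not particular to this group: control rat 1 was the lowest of the 3 controls for 14 of 14 genes of the list (31.6% of named genes) and for Nr4a1, and it lowers the control mean used here. TBI rat 1 was the lowest of its group for 10 of 14 (28.5% of named genes), with a median difference of -0.82 from the other TBI rats.

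**Figure D3:**
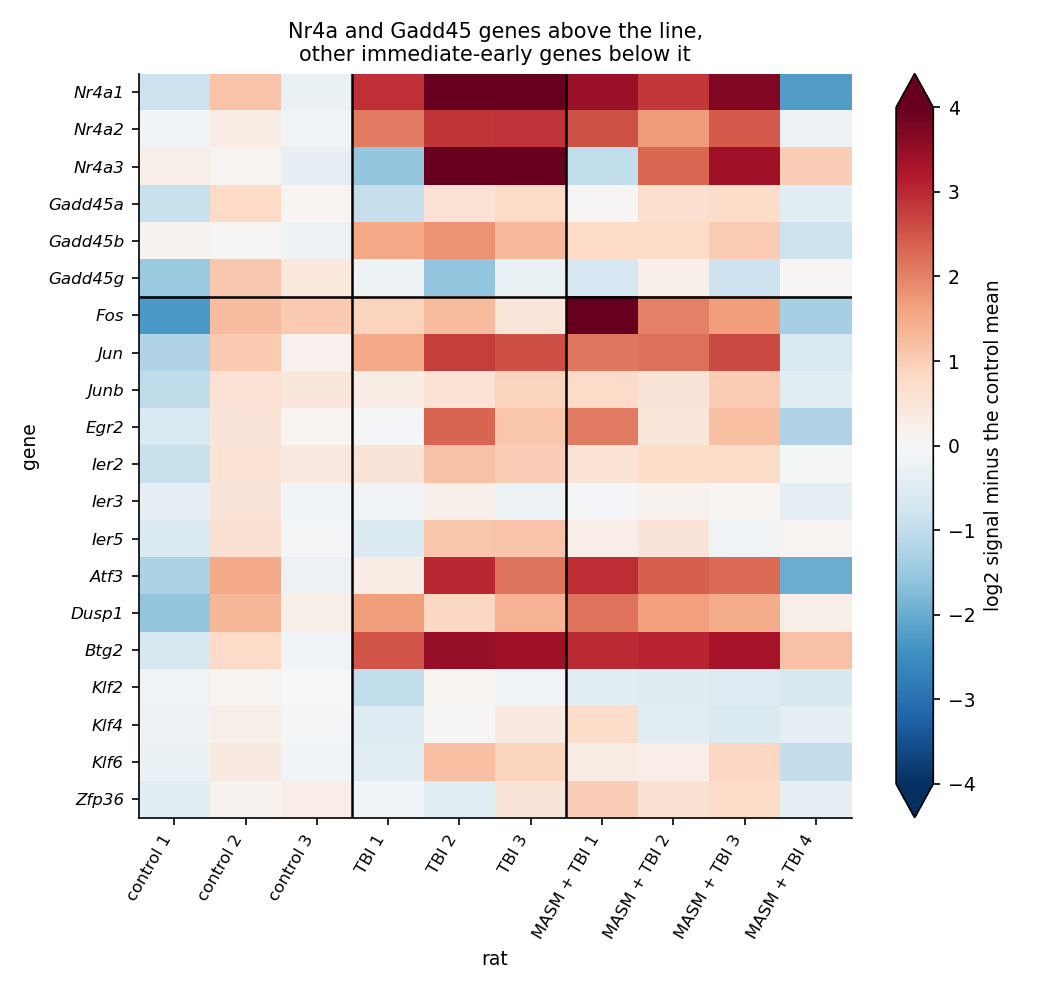
Log2 signal minus the control mean (colour, white at 0, cut off at 4 in either direction) for the 6 genes (above the line) and 14 other immediate-early genes (below it) in each of the 10 rats. In MASM + TBI rat 4 the cells of Nr4a1, Fos, Jun, Egr2 and Atf3 are blue while those of MASM + TBI rats 1 to 3 are red.

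Of the factors that act above NR4A genes, 11 of 14 had a probe: cAMP-responsive factors and their coactivators, MEF2 factors, serum response factor and subunits of protein kinase A. In each of the 3 comparisons limma called 0 of 11, and 0 passed unadjusted with the 1.5-fold minimum. Creb1, the cAMP-responsive activator, missed only the fold: it was above control without overlap by 0.41 in TBI rats (SE 0.10, adjusted p = 0.0488) and by 0.45 in MASM + TBI rats (SE 0.09, adjusted p = 0.0425). The list medians were 0.26 in TBI versus control, 0.04 in MASM + TBI versus control and -0.05 in MASM + TBI versus TBI. Crem, which yields the cAMP-inducible repressor ICER, gave 9.99, 10.06 and 10.00 in control rats, 10.48, 10.16 and 10.93 in TBI rats, and 10.03, 10.11, 10.21 and 9.81 in MASM + TBI rats. The TBI rats were above the control rats without overlap, by 0.51 on the log2 scale (SE 0.18, adjusted p = 0.146; 0.30 without TBI rat 3), and the MASM + TBI rats were at the control level.

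Proteins that bind NR4A receptors were represented by 5 of 7 genes. By limma 0 of 5 were called in any comparison, 0 passed unadjusted with the fold minimum, and the medians were -0.23, -0.19 and 0.03 in the order of the comparisons above. Bcl2, which Nr4a1 can bind at mitochondria, was not well above background on any array.

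All 8 genes of glucose production, which NR4A receptors act on in liver, were well above background on all 10 arrays. The 1 gene called was Slc37a4, the carrier that brings glucose 6-phosphate to glucose 6-phosphatase, and it was lower. Its log2 signal was 15.02, 14.83 and 14.88 in control rats, 14.06, 13.72 and 13.70 in TBI rats, and 14.18, 14.15, 14.08 and 14.12 in MASM + TBI rats, and no irradiated rat reached a control rat. It differed from control by -1.09 in TBI rats (SE 0.11, adjusted p = 0.002) and by -0.78 in MASM + TBI rats (SE 0.10, adjusted p = 0.00727). Between MASM + TBI and TBI the difference was 0.31 (SE 0.10, adjusted p = 0.177).

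G6pc1, the catalytic subunit of glucose 6-phosphatase and a gene that Nr4a1 acts on, gave 15.25, 15.15 and 14.94 in control rats, 15.87, 15.80 and 16.22 in TBI rats, and 15.43, 15.12, 15.41 and 13.53 in MASM + TBI rats. The TBI rats were the 3 highest and rat 4 of MASM + TBI was the lowest of all. The TBI difference was 0.85 (SE 0.46, adjusted p = 0.305). MASM + TBI rats lay below TBI rats without overlap (-1.09, SE 0.43, unadjusted p = 0.033, adjusted p = 0.245), the 1 gene of the list to pass unadjusted in that comparison. Without rat 4 this became -0.64 (adjusted p = 0.124, over the 10 left-out rats 0.124 to 0.388), and the TBI difference from control, still 0.85, was called (adjusted p = 0.0275, over the 10 left-out rats 0.0275 to 0.491). Pck1, the enzyme that commits oxaloacetate to glucose, lay between 14.31, in rat 4, and 15.07 in all 10 rats and differed between TBI and control by -0.19 (SE 0.18, adjusted p = 0.541), from -0.34 without TBI rat 3 to -0.08 without TBI rat 1. The list medians were -0.35, -0.31 and 0.11.

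Among kinases that GADD45 proteins act through, 8 of 9 had a probe. Map3k4, the kinase that GADD45 proteins bind and open, gave 6.09, 6.29 and 6.12 in control rats, 5.95, 5.84 and 6.10 in TBI rats, and 6.25, 6.20, 6.41 and 6.25 in MASM + TBI rats. MASM + TBI rats were above TBI rats without overlap, by 0.31 (SE 0.09, adjusted p = 0.15), which is under the fold minimum. Map2k6, the kinase directly above p38, was the 1 gene called. Its signal was 7.70, 7.36 and 7.32 in control rats, 6.41, 5.74 and 5.99 in TBI rats, and 6.37, 6.66, 6.91 and 6.95 in MASM + TBI rats, all irradiated rats being below all controls. It was lower in TBI than in control by a log2 difference of -1.42 (SE 0.21, adjusted p = 0.00978), against -0.74 in MASM + TBI rats (SE 0.20, adjusted p = 0.095), and the irradiated groups differed by 0.68 (adjusted p = 0.145). The list medians were 0.03, 0.15 and 0.14.

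Of the cell cycle and repair proteins that GADD45 proteins bind, 7 of 8 genes had a probe and 3 were called in both comparisons with control. Cdkn1a, which encodes p21, had the largest difference: 8.01, 8.25 and 8.84 in control rats, 13.47, 13.67 and 14.06 in TBI rats, and 13.06, 13.23, 12.80 and 13.58 in MASM + TBI rats. Every irradiated rat was far above every control rat, rat 4 included. The difference from control was 5.36 in TBI rats (SE 0.27, 41.2-fold, adjusted p = 0.00013) and 4.80 in MASM + TBI rats (SE 0.25, 27.8-fold, adjusted p = 0.000146). Cdk1, the kinase of mitotic entry, gave 8.87, 9.62 and 9.64 in control rats, 5.74, 5.55 and 6.37 in TBI rats, and 6.67, 5.19, 6.32 and 6.15 in MASM + TBI rats. It was lower in every irradiated rat, with differences of -3.50 (SE 0.40, adjusted p = 0.00329) and -3.30 (SE 0.37, adjusted p = 0.00383). Its cyclin Ccnb1 followed, with -3.03 (SE 0.39, adjusted p = 0.0056) and -3.10 (SE 0.36, adjusted p = 0.00454), the latter with only 2 of 4 MASM + TBI rats well above background. The list medians were -0.29, -0.29 and 0.04, and in MASM + TBI versus TBI limma called 0 of 7, with 0 unadjusted.

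Among transcription factors that act above GADD45 genes, 8 of 10 had a probe and 3 were called in TBI versus control. Nr1i3, the xenobiotic receptor CAR that uses Gadd45b as a coactivator, gave 8.99, 8.43 and 9.37 in control rats, 7.96, 7.90 and 7.97 in TBI rats, and 8.65, 8.51, 8.58 and 8.78 in MASM + TBI rats. The TBI rats were the 3 lowest, by -0.98 (SE 0.21, adjusted p = 0.0327), a call kept without control rat 2 or without MASM + TBI rats 2, 3 or 4 and lost without any of the other 6 rats (0.0548 to 0.0887). MASM + TBI rats differed from control by -0.30 (adjusted p = 0.514) and from TBI by 0.69 (adjusted p = 0.133). Atf4, the factor of the integrated stress response, gave 12.78, 12.73 and 12.73 in control rats, 13.44, 13.35 and 13.20 in TBI rats, and 12.94, 12.93, 13.09 and 12.54 in MASM + TBI rats. The TBI rats were the 3 highest and rat 4 was the lowest. The TBI difference was 0.59 (SE 0.14, adjusted p = 0.0477), a call kept without TBI rat 3 or MASM + TBI rats 3 or 4 and lost without any of the other 7 (0.0707 to 0.132). For MASM + TBI the differences were 0.13 from control (adjusted p = 0.695) and -0.45 from TBI (adjusted p = 0.137).

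Brca1, the DNA repair factor, was called lower (-1.04, SE 0.22, adjusted p = 0.0344), but its probe was not well above background on any array and the value carries no fold. That call was lost without any of the 3 control or 3 TBI rats (0.0529 to 0.112). In MASM + TBI versus control limma called 0 of 8 of these factors and 1 passed unadjusted, and in MASM + TBI versus TBI it called 0 of 8 and 1 passed unadjusted. The list medians were -0.10, -0.17 and -0.21.

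The p53 targets give the setting for Gadd45a. Of 16 with a probe among 18, 11 were called higher in TBI versus control and 0 lower, with 12 higher and 1 lower unadjusted, and the median was 1.10. In MASM + TBI versus control 11 were called higher and 1 lower, with a median of 1.14, and in MASM + TBI versus TBI limma called 0, 0 passed unadjusted and the median was -0.08. After Cdkn1a and Btg2 the largest TBI differences were those of Phlda3, an inhibitor of the kinase AKT (2.55, SE 0.15, adjusted p = 0.000253), the cyclin Ccng1 (2.48, SE 0.27, adjusted p = 0.00283) and the nuclease Aen (1.60, SE 0.09, adjusted p = 0.000154). In MASM + TBI rats these were 2.41 (SE 0.14, adjusted p = 0.000286), 2.59 (SE 0.25, adjusted p = 0.00218) and 1.46 (SE 0.08, adjusted p = 0.00019). Gadd45a, which p53 also drives, differed from control by 0.15 and 0.25 in the same livers, and whether it differs from the list was not tested. Over the 75 genes with a probe on all 8 lists together, 18 were called in TBI versus control, 15 in MASM + TBI versus control and 0 in MASM + TBI versus TBI, where 3 passed unadjusted. Of all named genes 5.18%, 2.9% and 0.864% were called in these comparisons.

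For 5 of the 6 genes (not Nr4a3, which was not well above background in all rats of any group) the 3 most similar genes were sought as those with the smallest mean absolute difference over the 10 arrays between profiles centred on their own means, among 9579 genes well above background in all rats of a group. For Nr4a1 they were Chac1, which breaks down glutathione (0.44, beside a median of 1.99 over the genes compared), the secreted growth factor binder Igfbp1 (0.63) and the chemokine Cxcl2 (0.71). Chac1 stood at 7.18 in control, 11.18 in TBI and 10.08 in MASM + TBI rats on average, and at 6.27 in rat 4. For Nr4a2 they were Insig1, a brake on sterol synthesis, Ppp1r15a, a subunit of the phosphatase that ends the integrated stress response (0.37 each, median 1.19) and Tcim (0.38). For Gadd45b they were Ifrd1, a transcriptional coregulator (0.23, median 0.70), Actl6b (0.26) and the olfactory receptor Or5w22 (0.27). Actl6b was well above background in 0 control, 3 TBI and 1 MASM + TBI rats, and Or5w22 in 2, 3 and 3. Both were thus compared only because of TBI, the group in which Gadd45b was high, and their likeness is not read as a result.

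Profiles most like Gadd45a were those of the pseudokinase Trib1 (0.17, median 0.60), Serpinb9 (0.28) and Abhd17b (0.32), and those most like Gadd45g were Lag3 (0.36, median 0.68), Mpzl2 (0.39) and Or3a1 (0.41). Lag3 was well above background in 1 control, 3 TBI and 2 MASM + TBI rats, and its likeness is not read as a result either. Among the 6 genes themselves, the measure depends on how far each profile ranges, so ranks differ by direction. Nr4a2 ranked 8th among the genes nearest Nr4a1, at 0.87, but Nr4a1 ranked 246th from Nr4a2. Gadd45b ranked 18th from Nr4a2, at 0.56, and Nr4a2 ranked 940th from Gadd45b. Gadd45b ranked 29th from Nr4a1, at 1.31, and Nr4a1 9456th from Gadd45b. Gadd45g ranked 9145th from Nr4a1 and Nr4a1 9574th from Gadd45g, at 2.26. No rank is given for Nr4a3, whose probe was not well above background in any control rat.

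The bases before the start of transcription are shown for Nr4a1, whose signal differed most, and for Gadd45a, whose groups overlapped. RefSeq's promoter table (GRCr8) had an entry for 5 of the 6 genes, and the 250 bases before the start were searched on both strands. G and C made up 74.8% of the window of Nr4a1, 52% for Nr4a2, 59.6% for Gadd45a and 66% for Gadd45b and Gadd45g. Shares given below count promoters with at least 1 match, not matches per promoter. The core of the cAMP response element, TGACG or its complement CGTCA, stood 4 times before Nr4a1 and once each before Nr4a2 and Gadd45a. It stood 0 times before Gadd45b and Gadd45g, and 19% of 27457 promoters held it. The full element TGACGTCA, which contains this core, was in 0 of the 5 windows (1.7% of promoters), as were the NR4A element AAAGGTCA (1.11%), the AP-1 element TGANTCA (6.36%) and the CArG box (1.5%). The GC box GGGCGG or its complement stood 3 times before Nr4a1, 3 times before Gadd45b and once before Gadd45a (32.4% of promoters). An NF-kB element stood once before Nr4a1 (6.41%), and a single p53 decamer stood once before Gadd45a (6.56%). The start used for Nr4a1 lies inside the annotated gene, which has other starts further upstream. The windows are chr7:134259888-134260137 on the plus strand for Nr4a1 and chr4:97486800-97487049 on the minus strand for Gadd45a, printed along each gene with the core in capitals. A match is a description of letters and not of binding.
Nr4a1: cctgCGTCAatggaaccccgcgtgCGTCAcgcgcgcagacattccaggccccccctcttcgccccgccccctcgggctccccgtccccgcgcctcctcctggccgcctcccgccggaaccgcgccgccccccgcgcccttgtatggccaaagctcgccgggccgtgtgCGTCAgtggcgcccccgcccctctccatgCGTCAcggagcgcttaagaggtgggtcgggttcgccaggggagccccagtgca
Gadd45a: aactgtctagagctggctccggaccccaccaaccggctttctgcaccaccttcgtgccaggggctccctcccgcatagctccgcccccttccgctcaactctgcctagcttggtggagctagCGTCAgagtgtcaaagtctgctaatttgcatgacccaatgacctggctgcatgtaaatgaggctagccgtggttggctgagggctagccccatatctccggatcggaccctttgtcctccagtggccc

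Markers of other cells of the liver moved with irradiation as well. Beside the counts below, limma called 5.18% of named genes in TBI versus control and 2.9% in MASM + TBI versus control. Between MASM + TBI and TBI it called 0.864%. Of 6 T lymphocyte markers 3 were called lower in TBI rats and 2 in MASM + TBI rats, with medians of -1.25 and -1.67. Lck went the other way in TBI rats (0.55, limma's adjusted p = 0.349). Cd3e, not well above background on any array, is 1 of the called genes in either group and enters both medians. Cd2, also called in TBI rats, was well above background in 0 of 3 of them, so only a bound holds (at least 5.14-fold lower). The summed signal of the 6 markers was 578, 794 and 691 in control rats, 308, 252 and 461 in TBI rats, and 392, 421, 225 and 364 in MASM + TBI rats. Cd3d, not called in TBI rats (-0.78, adjusted p = 0.214), was the brightest. In this sum every irradiated rat was below every control rat, and rat 4 lay within its group. Of 4 mast cell markers 2 were called lower in each irradiated group and 1 lower in MASM + TBI than in TBI, Kit and Fcer1a were not well above background on any array although Kit is 1 of the TBI calls, and the summed signal was 126 to 152 in control rats and 23.2 to 27.7 in irradiated rats, with Mcpt1 the brightest in control rats. Mcpt1 was well above background in 1 TBI rat and 0 MASM + TBI rats. Cpa3 was well above background on 6 arrays, those of the 3 control and 3 TBI rats. The sums of MASM + TBI rats are thus background, and those of TBI rats are partly so. Of 3 B lymphocyte markers 1 was called lower in each irradiated group, Cd79b, which was not well above background in any irradiated rat, so that only bounds hold: at least 4.98-fold lower in TBI rats and at least 2.55-fold lower in MASM + TBI rats (adjusted p of the measured differences 0.00484 and 0.00378). Blk, the brightest of them on average, differed by 0.12 in TBI rats (adjusted p = 0.953) and by -1.65 in MASM + TBI rats (adjusted p = 0.37). It was well above background in only 2 of 3 control, 2 of 3 TBI and 1 of 4 MASM + TBI rats, so neither difference is exact. The sum was 66.2 to 85 in control rats, 18.5 to 64.7 in TBI rats and 11.6 to 28.9 in MASM + TBI rats.

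Kupffer cells, the macrophages of the liver, can also express NR4A and GADD45 genes. Of their 8 markers 0 were called by limma in any comparison. MASM + TBI versus TBI gave 5 lower at an unadjusted p under 0.05 with the fold minimum (6.09% of named genes). All 8 markers were lower in that comparison, with a median of -0.75. Their summed signal was 90200, 139000 and 116000 in control rats, 94600, 174000 and 139000 in TBI rats, and 88800, 94000, 77300 and 73000 in MASM + TBI rats, with Clec4f the brightest on average. TBI rat 1 lay near the lowest control rat and MASM + TBI rat 4 was the lowest of the 10, as it was for Nr4a1, Nr4a2 and Gadd45b. MASM + TBI rat 3 had the next lowest sum (77300), and the highest Nr4a1 (11.90) and Gadd45b (10.81) signal of its group. The part of these cells in the results for the 6 genes was not tested.

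Of 4 erythroid genes 0 were called in TBI versus control (1 higher and 2 lower unadjusted, median -1.10). In MASM + TBI versus control 1 was called lower, 3 were lower unadjusted and without overlap, and the median was -1.34, with a summed signal, led by Hbb, of 2070 to 5070 in control rats and 1260 to 2790 in irradiated rats. Of 5 stellate cell genes 1 was called lower in each irradiated group, with list medians of -0.03 and -0.43. In TBI versus control it was Lrat (-0.62), while Reln (0.40) and Dcn (0.72) were higher. The sum of the 5 genes was 3080 to 5040 over all rats, with Lrat the brightest on average. Limma called 0 of 8 hepatocyte, 0 of 5 neutrophil, 0 of 4 endothelial and 0 of 3 cholangiocyte genes in any comparison. At the unadjusted threshold TBI versus control gave 1, 0, 0 and 1 of these, MASM + TBI versus control 2, 0, 1 and 0, and MASM + TBI versus TBI 0, 0, 0 and 1. The sums were 265 to 811 for neutrophil (led by S100a9), 12800 to 20800 for endothelial (Kdr) and 352 to 671 for cholangiocyte genes (Epcam). The part of these cells in the results for the 6 genes was not tested either.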

How the data were processed

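Total RNA from 10 livers had been labelled with Cy3 and hybridised to Agilent 1-colour rat arrays (design on build rn4). The authors deposited scanner files from Feature Extraction 10.7.3.1 with the processed intensity of each spot, background subtracted and spatially detrended, not normalized between arrays; the deposited series table held the same intensity. Here control spots and outlier-flagged spots were left out, log2 values were quantile normalized, spots of a probe were averaged, and 40945 probes with a value on every array were tested with limma 3.58.1 in R 4.3.3 (1 mean per group, eBayes, Benjamini-Hochberg over all probes). The script was tested on simulated data. Probes were named by accession through RefSeq (GRCr8), which gave 16950 of them a symbol, and a gene was taken by its brightest probe. The file's gene name was not used. A list gene counted as without a probe thus had none with a matching accession and a value on every array. The methods' t-test follows the simple t-test with a fold change that the study's results section names; Welch's form, the log2 scale, the fold from mean signals and the Benjamini-Hochberg step were chosen here.

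Members and lists were chosen with earlier results of these data known. The text names the 6 genes; list genes called in a comparison, at most 5 a list by size in TBI versus control; Map3k4, Crem, Cdkn1a, G6pc1 and Pck1; and the 3 genes most like each member with an SD above 0.5 that was well above background in all rats of a group. Atf3, Fos, Jun, Egr2, Bcl2, Creb1 and the genes of marker lists were named after their values were seen. Figures were drawn with matplotlib 3.10.9. The number of arrays limits the precision.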

Additional observations from a re-analysis of the deposited data

Results flagged for a closer look

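In 5 of 22 gene profiles checked over the 4 MASM + TBI rats, rat 4 was the lowest and stood apart, its gap to the nearest rat, as a share of the group's range, exceeding Dixon's limit for 4 values. Chance alone flags about 1 in 20 such groups, and profiles of 1 set of arrays are not independent. The gap was 0.854 of the range for Nr4a1, 0.878 for Gadd45b, 0.838 for G6pc1, 0.857 for Pck1 and 0.849 for Btg2. For Nr4a2 it was 0.694, also with rat 4 lowest. Groups of 3 rats were not checked.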

How the results depend on the processing

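The direction of Nr4a1, Nr4a2, Nr4a3 and Gadd45b in TBI versus control and in MASM + TBI versus control was kept under every alternative that gave a value; the dim-probe filter gave none for Nr4a3. Against 0 called of the 6 genes in TBI versus control, where 4.5% of probes were called, 75th percentile scaling gave 2 (17% of probes), normexp 1 (1.35%), the dim-probe filter 1 (7.64%), a model of only the 2 groups 2 (2.3%), and slide as a random block 2 (9.96%). Leaving out 1 rat gave 0 to 3 called in TBI versus control, 0 to 3 in MASM + TBI versus control and 0 to 0 in MASM + TBI versus TBI. For the 8 pathway lists, leaving out 1 rat gave 12 to 20 (18 with all rats), 12 to 15 (15) and 0 to 1 (0) calls. The methods' t-test, with a Benjamini-Hochberg step added here, gave 0 and 2 list calls in the comparisons with control, slide as a fixed block gave 7 in MASM + TBI versus control, and percentile scaling, the model of 2 groups and slide as a random block each gave 1 in MASM + TBI versus TBI. The cause was not tested, except that tests with fewer rats or without a shared spread have less to estimate it from.

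With the replicate number as a block, TBI versus control gave 3 calls of the 6 genes (Nr4a1, Nr4a2 and Gadd45b, with 2.51% of probes called). MASM + TBI rat 4 is alone in its block and drops out, and leaving that rat out alone gives the same 3 calls. In MASM + TBI versus control the block called none of the 6 genes, whereas leaving that rat out alone calls these 3. Neither called any of them in MASM + TBI versus TBI. The labels share only a number: deviations of same-numbered rats correlated between 0.0293 and 0.0938 in TBI versus control, where 6 of 6 rats correlated best with their own number, between -0.0479 and 0.169 in MASM + TBI versus control (2 of 6) and between -0.125 and 0.0187 in MASM + TBI versus TBI (0 of 6).

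Signs turned when single rats were left out. In TBI versus control Gadd45a (0.15) ran from -0.30 (control rat 1 left out) to 0.68 (TBI rat 1), with -0.07 for TBI rat 2 and -0.17 for TBI rat 3. Gadd45g kept its sign there (-0.69), from -1.43 (control rat 1) to -0.15 (control rat 2). In MASM + TBI versus control, Gadd45a ran from -0.19 (control rat 1) to 0.65 (control rat 2) and Gadd45g from -1.06 (control rat 1) to 0.22 (control rat 2). In MASM + TBI versus TBI, Gadd45a ran from -0.42 (TBI rat 1) to 0.42 (TBI rat 3), with -0.03 and -0.05 for rats 2 and 3 of MASM + TBI, Nr4a3 from -3.10 (TBI rat 1) to 0.17 (TBI rat 2), and Gadd45g from -0.08 (TBI rat 2) to 0.62 (TBI rat 1). Over all probes, 1842 were called in TBI versus control (821 higher, 1021 lower), 6950 with percentile scaling (1609 higher, 5341 lower) and 10 by the methods' t-test after the added adjustment (2905 without it). The alternatives for named list genes were added after seeing the data: 341 values kept their call, 66 lost it and 0 reversed. Signal over background limits Nr4a3, which was dim in every control rat.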
